A study of Mus musculus with 8 samples.

Results

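The 40 genes described here make ribosomes: the ribosomal RNA rows Rn45s and Rn18s and 38 protein-coding genes of RNA polymerase I, of the small nucleolar ribonucleoproteins (snoRNPs) and of pre-ribosome assembly, chosen by gene symbol from 24976 genes of a bulk RNA-seq count table. All 40 had enough reads to be tested, among 13029 genes tested in all. The study sequenced mouse CD8 T cells that infiltrated B16-OVA tumours, a melanoma line expressing ovalbumin, and compared a genotype with deleted Nr4a1 and Nr4a2, which encode nuclear receptors induced through the T-cell receptor, with wild type. Tumours were injected under the skin of Rag2-/- mice, which make no mature T or B cells. CD8+ T cells were given 10 days later and recovered from the tumours by sorting after another 10 days. The 4 groups had 2 libraries each: dKO-labelled PD1+Tim3+ cells, WT PD1+Tim3+ cells, dKO-labelled PD1+Tim3- cells and WT PD1+Tim3- cells.

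In the group labelled dKO, the donors carried Cd8Cre, floxed alleles of Nr4a1 and of Nr4a2, and OT-ITg/+, which encodes a T-cell receptor for an ovalbumin peptide. The text that gives this does not say whether the WT donors carried the OT-I receptor or Cd8Cre. All groups shared the tumour, the host and the sort for CD3e, CD8 and PD1, and Tim3 separated the populations. Tim3, encoded by Havcr2, is an inhibitory receptor that marks a more terminally exhausted state among tumour CD8 T cells. Each library held cells of 1 mouse, and it is not stated which PD1+Tim3+ and PD1+Tim3- libraries, if any, came from the same mouse.

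Ribosome biogenesis starts in the nucleolus, where RNA polymerase I transcribes ribosomal DNA into a 45S precursor. Box C/D and box H/ACA snoRNPs methylate and pseudouridylate the precursor, the small-subunit processome cuts out and folds the 18S part, and a separate set of factors assembles the large subunit around 28S and 5.8S RNA. Activated T cells raise this pathway steeply as they grow and divide, and the transcription factor Myc is a known activator of many of its genes.

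Library totals ran from 1944999 to 13418762 counts. Levels are CPM, counts relative to a library's total after scaling with TMM factors, with Rn45s and Rn18s left out of the totals and of the factors, and a gene was called when edgeR's quasi-likelihood test gave a Benjamini-Hochberg adjusted p under 0.05 over all 13029 genes. Havcr2 matched the sort: 59.5 and 61.1 CPM in dKO-labelled PD1+Tim3+ cells, 43.7 and 45.6 CPM in those labelled WT, 3.79 and 3.31 CPM in dKO-labelled PD1+Tim3- cells and 3.74 and 2.39 CPM in those labelled WT. Nr4a1 did not match the genotype. It had 1255 and 1233 CPM in dKO-labelled PD1+Tim3+ cells, against 839.1 and 823.9 CPM in WT, and 1392 and 1562 CPM in dKO-labelled PD1+Tim3- cells, against 1029 and 862.4 CPM in WT. Its level labelled dKO was above that labelled WT in both populations, and the differences did not pass edgeR's test (adjusted p 0.0926 and 0.125). Nr4a2 differed by -0.05 and -0.06 on the log2 scale in the same populations (edgeR adjusted p 0.935 and 0.913). The floxed exons are not named in the sources used here. A gene total can include reads from exons left in place, so the genotype is called by its label throughout. The summed CPM of CD8 T-cell markers (7 of 8 in the table, none at 0) was 3170 to 4180 in the 8 libraries, against 21.5 to 25.0 for B16 melanoma markers.

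Between the sorted populations, Rn45s and Rn18s were higher in PD1+Tim3+ than in PD1+Tim3- cells, while the protein-coding genes that passed the test were all lower. Among cells labelled dKO, 2 of the 40 genes were higher in PD1+Tim3+ than in PD1+Tim3- cells, Rn45s and Rn18s, 13 were lower, all of them protein-coding, and 25 did not pass. Among WT cells the same 2 rows were higher, 17 genes were lower and 21 did not pass. Over all genes tested 5.3% were higher and 4.6% lower in the comparison labelled dKO, and 8.06% were higher and 8.93% lower in WT. The median log2 fold change of the 38 protein-coding genes was -0.36 labelled dKO and -0.33 in WT, against 0.01 for all genes tested in each. The libraries of one population did not overlap those of the other, downwards, for 29 of the 40 genes labelled dKO, where 24.5% of all genes did so, and for 23 in WT, where 30.8% did. Upwards it was 3 genes labelled dKO and 4 in WT, where 26.5% and 32.1% of all genes did so. At an unadjusted p under 0.05 were 25 of the 40 genes labelled dKO and 24 in WT, against 23.8% and 31.6% of all genes.

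The size of this shift was alike in each library. Relative to the mean of the 8 libraries, the median of the 38 mRNAs was -0.16 and -0.16 log2 units in dKO-labelled PD1+Tim3+ cells, -0.21 and -0.14 in PD1+Tim3+ WT cells, 0.19 and 0.17 in dKO-labelled PD1+Tim3- cells and 0.17 and 0.16 in PD1+Tim3- WT cells. All 4 PD1+Tim3+ libraries were below 0 and all 4 PD1+Tim3- libraries above it. Since the libraries are bulk, fewer cells that express a gene and less RNA per cell cannot be told apart. CPM is a share of a library, so it depends on the scaling. Scaling by library totals alone moved the median of all genes to 0.11 labelled dKO and 0.24 in WT. Of the 40 genes, 5 and 6 were then called lower (4.19% and 5.89% of all genes). The median of the 40 genes relative to that of all genes stayed at -0.36 and -0.31. DESeq2 called 5 and 12 of the 40 genes lower labelled dKO and in WT (3.95% and 6.35% of all genes) and limma-voom 12 and 16 (4.09% and 9.58%), and each called 2 higher (3.27% and 3.66% of all genes by DESeq2, 4.46% and 8.52% by limma-voom). With each library left out, the median of the 40 genes ran from -0.352 to -0.312 labelled dKO. In WT it ran from -0.379 to -0.271. Each of these fits leaves 1 library in a group, and several called fewer genes lower, among the 40 and over all genes.

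**Figure D1:**
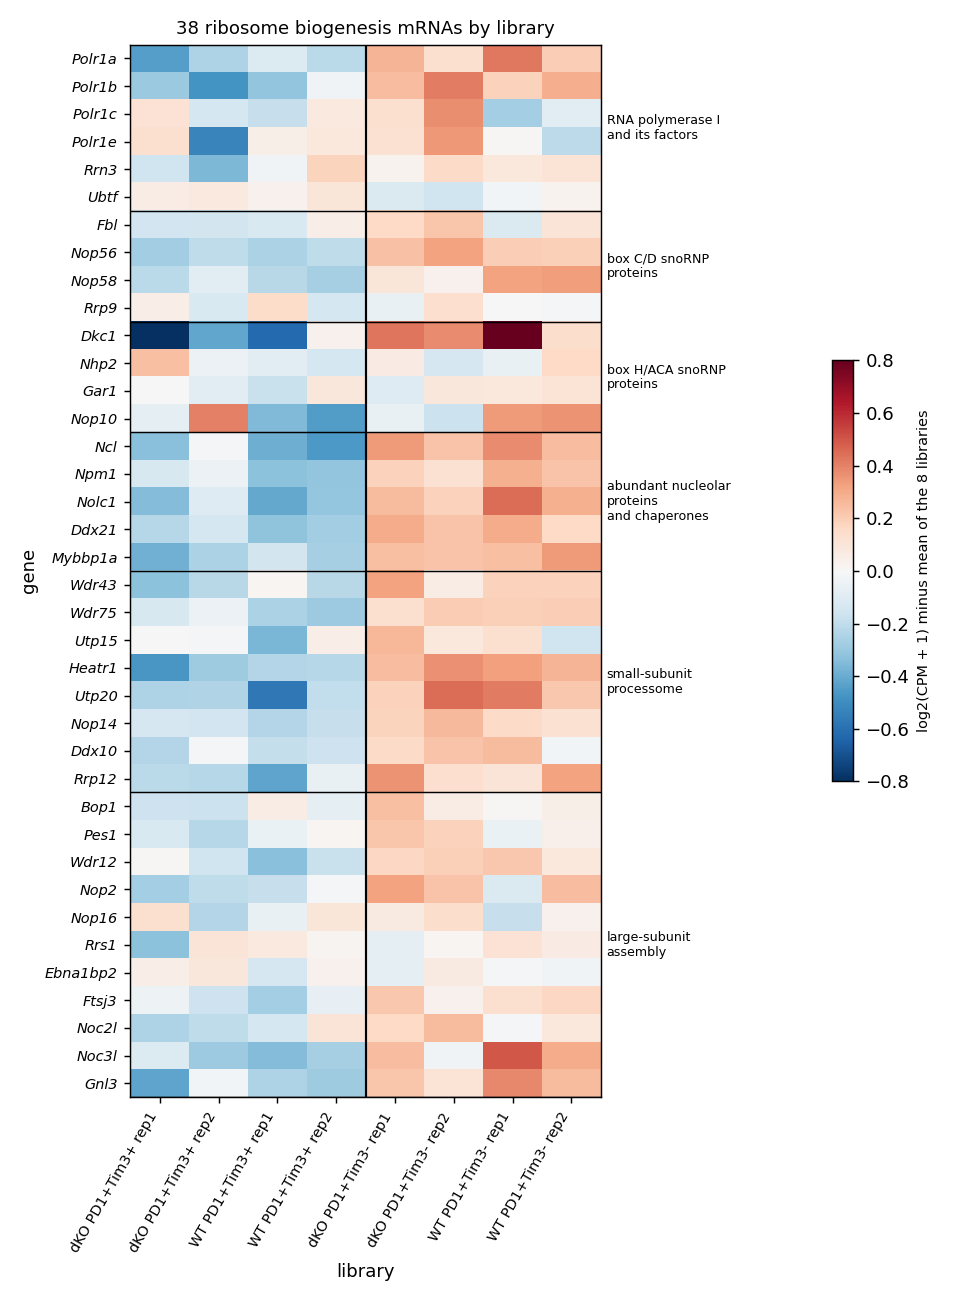
Level of each of the 38 protein-coding ribosome biogenesis genes (rows, grouped by role) in each of the 8 libraries (columns), as log2(CPM + 1) minus the mean of the 8 libraries, with colours ending at -0.8 and 0.8. PD1+Tim3+ libraries are left of the black line and mostly blue (library medians -0.21 to -0.14), and PD1+Tim3- libraries are right of it and mostly red (0.16 to 0.19).

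Markers of some other cells also differed between the populations. The summed CPM of 6 dendritic-cell genes was 53.9 to 60 and 56.9 to 61.3 in PD1+Tim3+ cells, labelled dKO and WT in that order, against 36.4 to 36.5 and 27.1 to 31.5 in their PD1+Tim3- cells. Itgax, which T cells can also express, was the most abundant of them, and Clec9a was at 0 in both libraries of each PD1+Tim3- group. The summed CPM of 4 erythroid genes was 22.5 to 81.0 and 3.8 to 24.0 in the PD1+Tim3+ groups, against 1.65 to 2.08 and 1.95 to 6.28 in the PD1+Tim3- groups. These erythroid ranges overlapped in WT. Markers of macrophages, neutrophils, B cells and stroma summed to at most 38.8 CPM in any library. The part of other cells in the differences described here was not tested.

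Rn18s, the mature RNA of the small subunit, had 40284 and 45036 CPM in dKO-labelled PD1+Tim3+ cells, 31474 and 36813 CPM in PD1+Tim3+ WT cells, 9796 and 8110 CPM in dKO-labelled PD1+Tim3- cells and 13175 and 11604 CPM in PD1+Tim3- WT cells. All 4 PD1+Tim3+ libraries were above all 4 PD1+Tim3- libraries. The log2 fold change was 2.25 ± 0.15 (standard error) labelled dKO (edgeR adjusted p 1.73e-05) and 1.46 ± 0.15 in WT (edgeR adjusted p 0.000299), or 4.76-fold and 2.76-fold. Rn45s is the row for the 45S precursor, from which 18S, 5.8S and 28S RNA are cut. It was higher by 2.10 ± 0.15 labelled dKO and by 1.35 ± 0.15 in WT (edgeR adjusted p 2.7e-05 and 0.000538). Its counts were close to those of Rn18s, as given below, so it may not be a separate measure of the precursor. Both rows stayed called in both genotypes under all 19 alternative settings.

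The counts of Rn18s came to 98.5% of those of Rn45s in dKO-labelled PD1+Tim3+ cells, 97.6% in PD1+Tim3+ WT cells, 88.9% in dKO-labelled PD1+Tim3- cells and 89.9% in PD1+Tim3- WT cells (means, n = 2 each). Whether the same reads were counted in both rows could be judged from these counts alone, since no sequence of the rows was at hand, and the remainder of Rn45s beyond Rn18s rests on that reading. The count of Rn45s minus that of Rn18s was 468 and 825 CPM in dKO-labelled PD1+Tim3+ cells, 686 and 1023 CPM in PD1+Tim3+ WT cells, 1266 and 977 CPM in dKO-labelled PD1+Tim3- cells and 1365 and 1395 CPM in PD1+Tim3- WT cells. This remainder was lower in PD1+Tim3+ than in PD1+Tim3- cells within each genotype, without overlap, and was not tested.

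Rn28s1, a row for 28S RNA that is not among the 40 genes and was chosen after its values were seen, had 506.1 and 525.3 CPM in dKO-labelled PD1+Tim3+ cells, 539.6 and 674.8 CPM in PD1+Tim3+ WT cells, 728.5 and 597.7 CPM in dKO-labelled PD1+Tim3- cells and 1009 and 893.9 CPM in PD1+Tim3- WT cells. It was lower in PD1+Tim3+ cells in WT, at -0.65 ± 0.15 (edgeR adjusted p 0.0124), and its -0.36 ± 0.15 labelled dKO did not pass (edgeR adjusted p 0.159). The ratio of Rn18s to Rn28s1 counts was 82.7 ± 4.34 in dKO-labelled PD1+Tim3+ cells and 56.4 ± 2.67 in PD1+Tim3+ WT cells, against 13.5 ± 0.08 in dKO-labelled PD1+Tim3- cells and 13.0 ± 0.06 in PD1+Tim3- WT cells (SD, n = 2 each). In cells both RNAs come from 1 precursor in equal number. Neither Rn28s1 nor the count of Rn45s beyond Rn18s was higher in PD1+Tim3+ cells. If 28S reads were counted in Rn45s too, Rn28s1 is part of that remainder, and they are not separate observations. In replicate 1 of dKO-labelled PD1+Tim3+ cells Rn28s1 had 2588 counts, more than the remainder of 2395, so the subtraction cannot be exact there. In replicate 2 it had 2710 counts, against a remainder of 4257. Whether these reads were shared was not tested. Poly(A) selection or rRNA depletion, which set how much rRNA a library keeps, were details not given in the sources used here, and their part in these rows was not tested.

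**Figure D2:**
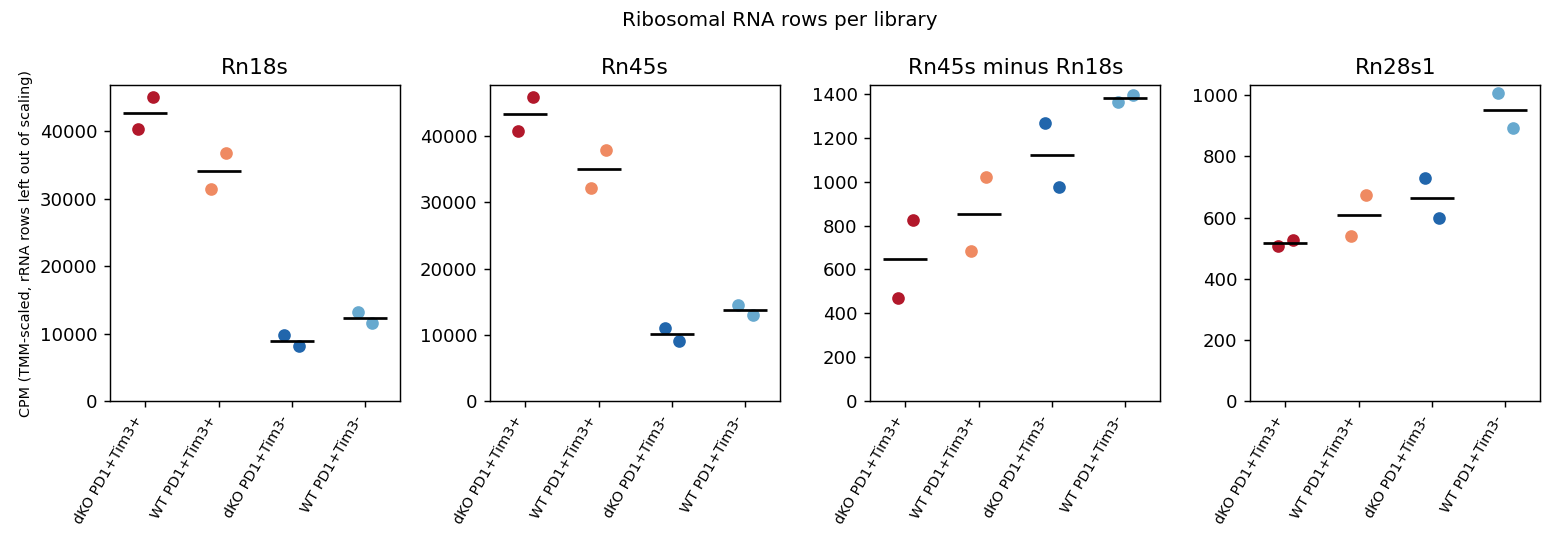
CPM of the ribosomal RNA rows Rn18s and Rn45s, of the counts of Rn45s beyond Rn18s, and of Rn28s1 (panels, linear axes from 0) in each library (points) with the group mean (line, n = 2). Rn18s and Rn45s are high in the PD1+Tim3+ groups, 31474 CPM or more for Rn18s, while the remainder and Rn28s1 are lower there than in the PD1+Tim3- group of the same genotype.

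Promoters were searched for the E-box CACGTG, a palindrome that reads the same on both strands and is known to be bound by Myc and its partner Max as well as by other factors. The window of 300 bases ran from 250 before to 50 after the start that the RefSeq promoter table uses (GRCm38.p6), which for Wdr43 lies inside the annotated gene, and 33 of the 40 genes had one. It held the motif in 6 of the 33 genes (18.2%), Nop2, Utp20, Pes1, Mybbp1a, Rrn3 and Wdr43, and in 2187 of 27025 genes of the promoter table (8.09%). The 27025 include genes not tested here, while all 33 were tested, so the shares come from unlike sets. Bop1, Rrs1, Fbl, Npm1, Rrp12, Rn45s and Rn18s were not matched. The windows of the genes with the motif that were lower in both genotypes, Mybbp1a and Utp20, and that of Nop2, lower labelled dKO, are shown in the direction of transcription with the motif in capitals. They come from chr11:72441077-72441376 (plus strand), chr10:88826765-88827064 (minus strand) and chr6:125131633-125131932 (plus strand). The windows of Pes1 and Wdr43, also lower labelled dKO, and of Rrn3, called in neither genotype, are not shown. That of Rrn3 holds the motif 2 times. A match is a string of letters and does not show that a factor binds there.
Mybbp1a: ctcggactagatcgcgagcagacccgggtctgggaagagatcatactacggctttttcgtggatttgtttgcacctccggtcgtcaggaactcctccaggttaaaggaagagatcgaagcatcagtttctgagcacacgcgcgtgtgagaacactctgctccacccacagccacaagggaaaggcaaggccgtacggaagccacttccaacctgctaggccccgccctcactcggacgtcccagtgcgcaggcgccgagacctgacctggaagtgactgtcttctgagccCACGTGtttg
Utp20: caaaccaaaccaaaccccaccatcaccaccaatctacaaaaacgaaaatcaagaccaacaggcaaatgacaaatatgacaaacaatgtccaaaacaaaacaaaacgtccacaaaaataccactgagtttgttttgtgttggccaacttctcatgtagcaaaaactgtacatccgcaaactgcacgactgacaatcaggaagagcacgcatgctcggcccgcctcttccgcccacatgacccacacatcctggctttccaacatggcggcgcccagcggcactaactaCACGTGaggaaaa
Nop2: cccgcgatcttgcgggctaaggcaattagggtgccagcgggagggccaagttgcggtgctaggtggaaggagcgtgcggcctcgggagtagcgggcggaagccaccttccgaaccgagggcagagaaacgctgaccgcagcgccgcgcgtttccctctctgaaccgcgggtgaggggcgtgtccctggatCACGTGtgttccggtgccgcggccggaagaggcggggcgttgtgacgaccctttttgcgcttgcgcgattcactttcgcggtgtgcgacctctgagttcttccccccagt

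With the annotated start as position 0, the motif begins at -60 in Nop2, at 37 in Utp20 and at 40 in Mybbp1a.

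The protein-coding genes of RNA polymerase I did not move as 1 block. Of 6 genes, 2 were lower in dKO-labelled PD1+Tim3+ cells and 1 in WT. Polr1a, the largest catalytic subunit of the polymerase, had 43.0 and 49.4 CPM in dKO-labelled PD1+Tim3+ cells, against 71.2 and 64.5 CPM in their PD1+Tim3- cells, and 54.4 and 50.4 CPM in PD1+Tim3+ WT cells, against 79.3 and 67.5 CPM in theirs. It was lower in PD1+Tim3+ cells in both genotypes, with no overlap, at -0.57 ± 0.13 labelled dKO (edgeR adjusted p 0.0234) and -0.50 ± 0.12 in WT (edgeR adjusted p 0.0158). Polr1b, the second catalytic subunit, had 21.9 and 19.2 CPM in dKO-labelled PD1+Tim3+ cells, against 32.4 and 36.4 CPM in PD1+Tim3- cells, a log2 fold change of -0.72 ± 0.16 (edgeR adjusted p 0.021). In WT cells it had 21.7 and 26.6 CPM, against 31.0 and 33.4 CPM, which also did not overlap but did not pass (-0.39 ± 0.14, edgeR adjusted p 0.0814).

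The other 4 genes of this group did not pass in either genotype. Ubtf, the upstream binding factor that keeps ribosomal DNA open for transcription, had the only positive fold change of the 6 labelled dKO: 129.9 and 131.2 CPM in PD1+Tim3+ cells, against 114.5 and 111.3 CPM in PD1+Tim3- cells (0.21 ± 0.10, edgeR adjusted p 0.247). Rrn3, the initiation factor that brings the polymerase to the promoter, had 30.5 and 26.4 CPM in dKO-labelled PD1+Tim3+ cells, against 34.83 and 38.01 CPM in PD1+Tim3- cells, and in WT 33.4 and 38.7 CPM, against 36.3 and 36.9 CPM (edgeR adjusted p 0.168 and 0.977). Polr1c, a subunit shared with RNA polymerase III, and Polr1e, a subunit of the initiation and elongation subcomplex, had log2 fold changes of -0.25 and -0.38 labelled dKO and 0.15 and 0.16 in WT, with edgeR adjusted p from 0.332 to 0.601.

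Of the 4 box C/D proteins, which form the particles that methylate rRNA, Nop56 was lower in both genotypes, Nop58 in WT, and the other two did not pass. Nop56, a core scaffold protein, had 163.5 and 172.3 CPM in dKO-labelled PD1+Tim3+ cells, against 233.4 and 249.0 CPM in PD1+Tim3- cells, and in WT 166.5 and 172.2 CPM, against 227.4 and 226.9 CPM. These pairs did not overlap, and the log2 fold changes were -0.52 ± 0.11 labelled dKO and -0.42 ± 0.10 in WT (edgeR adjusted p 0.0149 and 0.0177). Nop58, the paralogous scaffold, had 117.1 and 128.3 CPM in dKO-labelled PD1+Tim3+ cells, against 146.0 and 139.4 CPM in PD1+Tim3- cells, which did not pass (-0.22 ± 0.11, edgeR adjusted p 0.234). In WT cells it had 116.7 and 113.0 CPM, against 170.8 and 171.6 CPM (-0.58 ± 0.10, edgeR adjusted p 0.00466). Fibrillarin (Fbl), the methyltransferase of the particle, had a log2 fold change of -0.34 ± 0.12 labelled dKO and -0.03 ± 0.12 in WT (edgeR adjusted p 0.122 and 0.884). Rrp9, a U3 snoRNP protein, was the flattest, at -0.05 and 0.00 (edgeR adjusted p 0.891 and 0.998).

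Among the 4 box H/ACA proteins, the pseudouridylation machinery that is also part of telomerase, Dkc1 was lower in PD1+Tim3+ cells in both genotypes and Nop10 in WT, and the other two did not pass in either. Dkc1, the pseudouridine synthase dyskerin, had the largest decrease of all 40 genes: 220.8 and 317.1 CPM in dKO-labelled PD1+Tim3+ cells, against 569.6 and 550.3 CPM in PD1+Tim3- cells, and in WT 275.2 and 433.6 CPM, against 852.4 and 466.9 CPM. The pairs did not overlap, but its standard error was the highest of the 40 genes. The log2 fold change was -1.06 ± 0.28 labelled dKO and -0.89 ± 0.28 in WT (edgeR adjusted p 0.0398 and 0.0491), and it stayed called in 13 and 7 of 19 alternative settings. Nop10, the small structural subunit that stabilises dyskerin, had 61.5 and 57.5 CPM in PD1+Tim3+ WT cells, against 100.2 and 101.5 CPM in PD1+Tim3- WT cells. Its log2 fold change there was -0.76 ± 0.14 (edgeR adjusted p 0.00568). In cells labelled dKO it had 74.7 and 104.7 CPM in PD1+Tim3+ cells, against 75.7 and 70.0 CPM in PD1+Tim3- cells, with overlap (0.29 ± 0.15, edgeR adjusted p 0.275). Nhp2 and Gar1, the remaining core proteins, had log2 fold changes of 0.13 and -0.02 labelled dKO and -0.17 and -0.12 in WT, none of which passed.

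Of the 5 abundant nucleolar proteins, 3 were lower in dKO-labelled PD1+Tim3+ cells and all 5 in WT. Ncl (nucleolin), an rRNA-binding protein that is used as a nucleolar marker, had 750.2 and 943.3 CPM in dKO-labelled PD1+Tim3+ cells, against 1198 and 1111 CPM in PD1+Tim3- cells, which did not pass (-0.45 ± 0.14, edgeR adjusted p 0.0636). In WT cells it had 721.5 and 689.9 CPM, against 1233 and 1124 CPM (-0.74 ± 0.14, edgeR adjusted p 0.0055). Npm1 (nucleophosmin), a histone and ribosome chaperone, had 1327 and 1406 CPM in dKO-labelled PD1+Tim3+ cells, against 1650 and 1576 CPM in PD1+Tim3- cells (-0.24 ± 0.11, edgeR adjusted p 0.229), and in WT 1154 and 1163 CPM, against 1769 and 1701 CPM (-0.58 ± 0.11, edgeR adjusted p 0.0068). The libraries of both genes did not overlap in either genotype.

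Nolc1, a chaperone of snoRNPs, had 117.0 and 138.4 CPM in dKO-labelled PD1+Tim3+ cells, against 177.4 and 169.7 CPM in PD1+Tim3- cells, and in WT 112.1 and 120.2 CPM, against 203.0 and 181.8 CPM. Ddx21, an RNA helicase that works with RNA polymerase I and on snoRNAs, had 190.3 and 201.6 CPM in dKO-labelled PD1+Tim3+ cells, against 273.4 and 261.1 CPM, and in WT 177.8 and 183.4 CPM, against 273.5 and 248.4 CPM. Mybbp1a, a nucleolar Myb-binding protein whose promoter holds the E-box shown, had 87.6 and 96.0 CPM in dKO-labelled PD1+Tim3+ cells, against 135.4 and 134.4 CPM, and in WT 103.6 and 95.0 CPM, against 135.6 and 145.4 CPM. All 3 were lower in PD1+Tim3+ cells of both genotypes without overlap. Their log2 fold changes were -0.44, -0.45 and -0.56 labelled dKO (standard errors 0.11 to 0.12, edgeR adjusted p 0.0419, 0.0304 and 0.0128) and -0.73, -0.53 and -0.50 in WT (standard errors 0.11 to 0.12, edgeR adjusted p 0.00336, 0.00814 and 0.00881).

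All 8 genes of the small-subunit processome, the large particle that forms on the nascent precursor around U3 RNA, had negative fold changes in both genotypes, and 3 were called labelled dKO and 4 in WT. Heatr1, which the processome needs and which also aids RNA polymerase I transcription, had 51.0 and 58.0 CPM in dKO-labelled PD1+Tim3+ cells, against 84.3 and 91.5 CPM in PD1+Tim3- cells, and in WT 59.9 and 60.3 CPM, against 89.0 and 85.5 CPM. Its log2 fold change was -0.68 ± 0.11 labelled dKO and -0.54 ± 0.10 in WT (edgeR adjusted p 0.00532 and 0.00653), and it stayed called in 18 and 15 of 19 alternative settings. Utp20, a large scaffold of the processome and the other gene with an E-box that was called in both genotypes, had 43.6 and 43.8 CPM in dKO-labelled PD1+Tim3+ cells, against 59.3 and 71.1 CPM, and in WT 34.7 and 45.1 CPM, against 69.5 and 60.5 CPM (-0.55 ± 0.15 and -0.69 ± 0.14, edgeR adjusted p 0.046 and 0.00795). Neither gene overlapped between populations. Heatr1 has an opposite-strand neighbour, Lgals8, that overlaps it in part, as Wdr12 has Carf and Noc2l has Samd11, and use of strand in the counting was a detail not given in the sources used here.

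The other called genes of the processome passed in 1 genotype each, and the test of the difference between genotypes passed for none of them (edgeR adjusted p 0.669 or more). Wdr43, a U3-associated WD-repeat protein that also works in transcription, was lower labelled dKO (67.3 and 72.5 CPM in PD1+Tim3+ cells, against 106.0 and 88.1 CPM), at -0.49 ± 0.13 (edgeR adjusted p 0.0365), and in WT had -0.29 ± 0.12 (edgeR adjusted p 0.123). Wdr75, a protein of the first complex to join the precursor, was lower in WT (57.2 and 55.7 CPM in PD1+Tim3+ cells, against 78.1 and 78.3 CPM), at -0.47 ± 0.10 (edgeR adjusted p 0.00824), and labelled dKO had -0.25 ± 0.10 (edgeR adjusted p 0.164). Nop14, an assembly factor of the small subunit, had almost the same fold change in both, -0.36 labelled dKO and -0.35 in WT, on either side of the threshold (edgeR adjusted p 0.0501 and 0.0286). Rrp12, Ddx10 and Utp15, which did not pass, had fold changes of -0.53, -0.31 and -0.21 labelled dKO and -0.42, -0.31 and -0.12 in WT.

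Of the 11 large-subunit factors, which build the pre-60S particle, different genes were called in the genotypes. In cells labelled dKO 3 were lower in PD1+Tim3+ cells, Pes1, Nop2 and Noc2l, and in WT 3 others, Wdr12, Noc3l and Gnl3. Nop2, a methyltransferase of 28S RNA with an E-box in its promoter, had 71.2 and 74.8 CPM in dKO-labelled PD1+Tim3+ cells, against 108.1 and 101.4 CPM in PD1+Tim3- cells (-0.53 ± 0.14, edgeR adjusted p 0.0357), and in WT 75.9 and 85.2 CPM, against 79.4 and 102.4 CPM, which overlapped (-0.16 ± 0.13, edgeR adjusted p 0.417). Pes1, a core protein of the PeBoW complex, had 57.3 and 53.1 CPM in dKO-labelled PD1+Tim3+ cells, against 73.1 and 71.1 CPM (-0.39 ± 0.11, edgeR adjusted p 0.0447), and in WT 60.1 and 63.0 CPM, against 60.3 and 64.2 CPM (-0.01 ± 0.10, edgeR adjusted p 0.964). Noc2l, a nucleolar protein that escorts pre-60S particles, had 84.5 and 86.9 CPM in dKO-labelled PD1+Tim3+ cells, against 112.1 and 119.5 CPM (-0.43 ± 0.12, edgeR adjusted p 0.0423), and in WT 91.0 and 107.9 CPM, against 99.4 and 106.3 CPM (-0.04 ± 0.11, edgeR adjusted p 0.828). These 3 genes had lower values in PD1+Tim3+ cells only labelled dKO without overlap, but the tests of the difference between genotypes did not pass (edgeR adjusted p 0.564, 0.421 and 0.452).

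The 3 genes called in WT had negative fold changes labelled dKO too. Noc3l, a partner of Noc2l in pre-60S particles, had 20.1 and 21.3 CPM in PD1+Tim3+ WT cells, against 36.9 and 31.9 CPM in PD1+Tim3- WT cells (-0.73 ± 0.14, edgeR adjusted p 0.00586), and -0.37 ± 0.16 labelled dKO (edgeR adjusted p 0.18). Gnl3 (nucleostemin), a nucleolar GTPase of proliferating and stem cells, had 47.4 and 46.3 CPM, against 74.2 and 67.7 CPM in WT (-0.60 ± 0.13, edgeR adjusted p 0.0103), and -0.39 ± 0.14 labelled dKO (edgeR adjusted p 0.112). Wdr12, a PeBoW partner of Pes1, had 25.4 and 28.4 CPM, against 37.5 and 34.3 CPM in WT (-0.41 ± 0.12, edgeR adjusted p 0.0408), and -0.26 ± 0.13 labelled dKO (edgeR adjusted p 0.279). The third PeBoW member, Bop1, did not pass in either (-0.35 and -0.04), nor did Ftsj3 (-0.25 and -0.31). Nop16, Rrs1 and Ebna1bp2 had fold changes of -0.14, -0.06 and 0.08 labelled dKO and 0.11, -0.04 and -0.02 in WT, none of which passed.

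Altogether 22 of the 38 mRNAs were lower in at least 1 genotype, against 9.99% of all genes tested. In both genotypes 8 were, Ddx21, Dkc1, Heatr1, Mybbp1a, Nolc1, Nop56, Polr1a and Utp20, which is 61.5% of the genes called labelled dKO and 47.1% of those called in WT. Over all genes tested, 3.53% were lower in both genotypes, which is 76.8% of the genes called lower labelled dKO and 39.6% in WT. None of the 38 was called higher in either genotype.

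**Figure D3:**
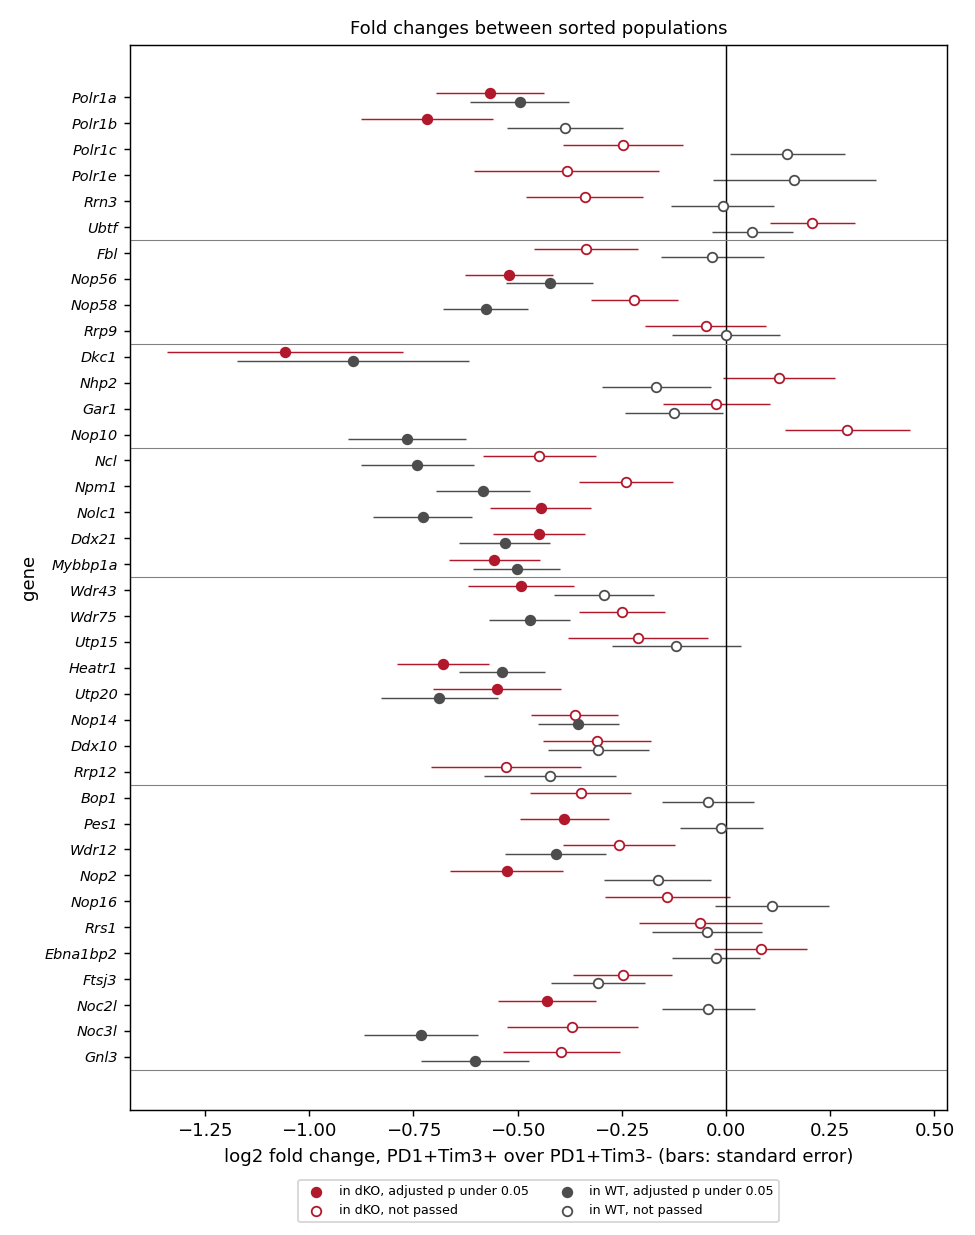
Log2 fold change of PD1+Tim3+ over PD1+Tim3- cells for the 38 protein-coding genes (rows, grouped by role), labelled dKO (red) and WT (grey), with the standard error. Filled points passed edgeR's test at an adjusted p under 0.05. Most points are left of 0, Dkc1 farthest at -1.06 and -0.89, and Nop10 is on opposite sides of 0 in the genotypes (0.29 labelled dKO and -0.76 in WT).

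Between genotypes, no gene of the 40 passed. In PD1+Tim3+ cells edgeR called 0 of the 40 genes, beside 0.276% of all genes higher and 0.368% lower in cells labelled dKO, and 2 of the 40 had an unadjusted p under 0.05, against 12.1% of all genes. In PD1+Tim3- cells edgeR again called 0, beside 0.0154% higher and 0.0307% lower, and 5 had an unadjusted p under 0.05, against 8.28%. DESeq2 also called 0 of the 40 genes in both populations, beside 0.276% of all genes higher and 0.269% lower in PD1+Tim3+ cells and 0.023% and 0.023% in PD1+Tim3- cells. So did limma-voom, beside 0.299% and 0.292% in PD1+Tim3+ cells and 0% and 0% in PD1+Tim3- cells. The median log2 fold change of the 40 genes, labelled dKO over WT, was 0.02 among PD1+Tim3+ cells and 0.00 among PD1+Tim3- cells, against 0.01 and -0.01 for all genes. A difference that did not pass with 2 libraries a group does not show equal levels.

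Nop10 had the smallest p of the 40 genes in PD1+Tim3+ cells. It had 74.7 and 104.7 CPM in dKO-labelled PD1+Tim3+ cells, against 61.5 and 57.5 CPM in PD1+Tim3+ WT cells (0.60 ± 0.14, edgeR adjusted p 0.122), and 75.7 and 70.0 CPM in dKO-labelled PD1+Tim3- cells, against 100.2 and 101.5 CPM in PD1+Tim3- WT cells (-0.46 ± 0.15, edgeR adjusted p 0.475). The libraries labelled dKO were above WT in one population and below it in the other, without overlap in either. The genotype effect in PD1+Tim3+ minus that in PD1+Tim3- cells was 1.05 ± 0.21 log2 units, which did not pass by edgeR (adjusted p 0.194) and passed by DESeq2 (1.06, adjusted p 0.0385). edgeR and limma-voom called 0 genes of the whole table in that test, where 10.1% had an unadjusted p under 0.05 (6 of the 40 did), while DESeq2 called 0.698% of genes higher and 0.0307% lower. Without replicate 1 of dKO-labelled PD1+Tim3+ cells, Nop10 passed edgeR's test for both the genotype in PD1+Tim3+ cells (0.82, adjusted p 0.00236) and the difference between populations (1.27, adjusted p 0.000963). Without replicate 2 of that group it passed neither (0.33, adjusted p 0.402, and 0.79, adjusted p 0.212).

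For 353 genes whose transcripts measure 500 to 700 bases, the median log2 fold change, labelled dKO over WT, was 0.32 among PD1+Tim3+ cells and -0.22 among PD1+Tim3- cells, for 723 genes of 700 to 1000 bases it was 0.11 and -0.02, and for 3020 genes of 1000 to 2000 bases it was 0.00 and 0.05. For 229 genes under 500 bases it was 0.39 and -0.27. Between the sorted populations, PD1+Tim3+ over PD1+Tim3- cells, the median under 500 bases was 0.05 labelled dKO and -0.58 in WT. It was 0.26 and -0.34 for 500 to 700 bases, 0.15 and 0.04 for 700 to 1000, and 0.07 and 0.14 for 1000 to 2000. These medians have no test. The median annotated transcript of Nop10 is 1109 bases long in GENCODE M21, while its RefSeq gene, introns included, spans only chr2:112261926-112262898 of GRCm38.p6, plus strand. With offsets for transcript length, chosen after seeing the data, Nop10 was 0.55 over WT in dKO-labelled PD1+Tim3+ cells (edgeR adjusted p 0.216) and -0.50 in dKO-labelled PD1+Tim3- cells (edgeR adjusted p 0.515), and the difference was 1.06 (edgeR adjusted p 0.352). These offsets used the length of 1109 bases, so they may have placed Nop10 among longer transcripts than its own.

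The ribosomal RNA rows had the same crossed pattern without passing. Rn18s differed between genotypes by 0.32 ± 0.15 in PD1+Tim3+ cells (edgeR adjusted p 0.418) and by -0.47 ± 0.15 in PD1+Tim3- cells (edgeR adjusted p 0.475), with libraries labelled dKO above and below WT without overlap, and the difference of these effects, 0.79 ± 0.21, did not pass (edgeR adjusted p 0.231). It passed without replicate 1 of dKO-labelled PD1+Tim3+ cells (0.87, edgeR adjusted p 0.0313) and did not without replicate 2 (0.71, edgeR adjusted p 0.314). Of the others, Polr1c had a log2 fold change of 0.42 ± 0.15 over WT in dKO-labelled PD1+Tim3- cells (79.5 and 94.2 CPM, against 59.96 and 68.12 CPM), which did not pass (edgeR adjusted p 0.511). Nop58 was -0.26 ± 0.10 there (146.0 and 139.4 CPM, against 170.8 and 171.6 CPM, edgeR adjusted p 0.574). Rrn3 had 30.5 and 26.4 CPM in dKO-labelled PD1+Tim3+ cells, against 33.4 and 38.7 CPM in WT (-0.36 ± 0.13, edgeR adjusted p 0.278). The libraries of these genes did not overlap between genotypes in the population named. In PD1+Tim3+ cells 12 of the 40 genes were above WT without overlap and 8 below, beside 21.5% and 20% of all genes, and in PD1+Tim3- cells 9 and 11, beside 20.1% and 21.1%.

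**Figure D4:**
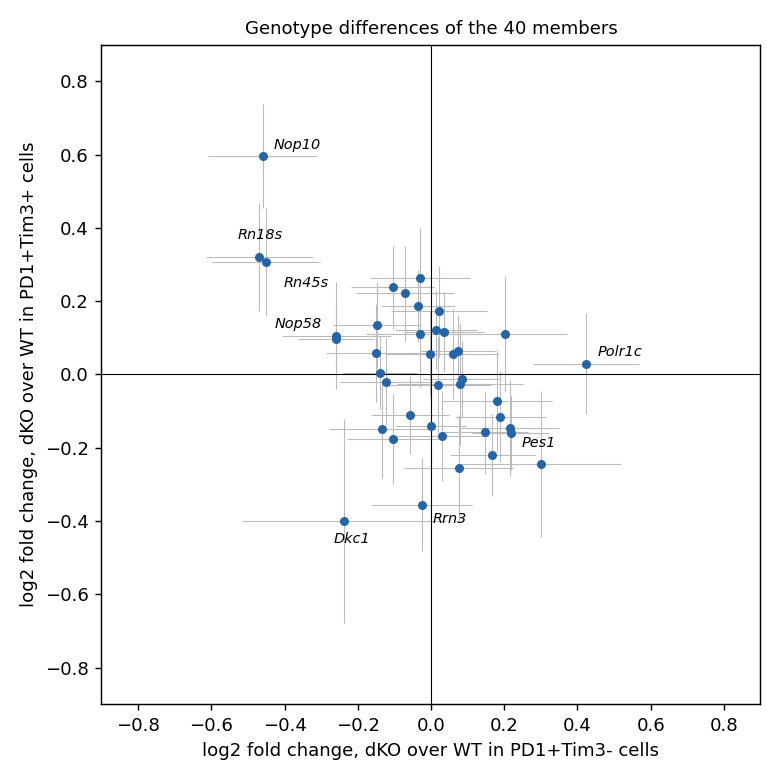
Log2 fold change of cells labelled dKO over WT in PD1+Tim3- cells (horizontal axis) and in PD1+Tim3+ cells (vertical axis) for the 40 genes (points), with standard errors in both directions. Most points lie near the origin. Nop10, Rn18s and Rn45s are in the upper left, at 0.60, 0.32 and 0.31 among PD1+Tim3+ cells and -0.46, -0.47 and -0.45 among PD1+Tim3- cells, and none passed the test.

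Other genes of the pathway, 106 genes from the remaining RNA polymerase I and SL1 subunits, small- and large-subunit factors and the RNA exosome, all of them tested, had smaller negative medians between the populations. In PD1+Tim3+ over PD1+Tim3- cells, 12 were lower and 1 higher in the comparison labelled dKO, with a median of -0.19, and in WT 21 were lower and 0 higher, with a median of -0.15. Over all genes, 4.6% and 8.93% were lower. The smallest adjusted p in both genotypes was that of Mdn1 (midasin), the giant ATPase that strips assembly factors from pre-60S particles: 143.2 and 155.5 CPM in dKO-labelled PD1+Tim3+ cells, against 265.2 and 267.7 CPM, and in WT 125.8 and 150.1 CPM, against 251.3 and 228.2 CPM (-0.84 ± 0.12 and -0.80 ± 0.12, edgeR adjusted p 0.00284 and 0.0026). Next labelled dKO were Tsr1, a GTPase-like protein of late pre-40S particles (-0.59, edgeR adjusted p 0.00958), and Sdad1, a large-subunit factor (-0.57, edgeR adjusted p 0.0108). In WT they were Nifk, which binds the Ki-67 protein (-0.65, edgeR adjusted p 0.00336), and Nol6, a processome protein (-0.89, edgeR adjusted p 0.00345).

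The exception was Znrd1, a small subunit of RNA polymerase I, which had 63.0 and 57.8 CPM in dKO-labelled PD1+Tim3+ cells, against 44.5 and 39.1 CPM in PD1+Tim3- cells (0.51 ± 0.14, edgeR adjusted p 0.0394), and in WT 39.98 and 46.47 CPM, against 41.9 and 48.8 CPM (-0.05 ± 0.13, edgeR adjusted p 0.818). By list, 7 of 36 small-subunit factors were lower labelled dKO and 7 in WT, and 5 and 12 of 48 large-subunit factors. Of 13 exosome genes, which encode the RNase complex that trims and degrades RNA including pre-rRNA, 0 passed edgeR's test in any comparison. Between the populations, 1 labelled dKO and 3 in WT had an unadjusted p under 0.05, against 23.8% and 31.6% of all genes. Between genotypes, 0 of the 106 genes passed edgeR's test in either population. An unadjusted p under 0.05 was seen for 12 among PD1+Tim3+ cells and 3 among PD1+Tim3- cells, against 12.1% and 8.28% of all genes.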

How the data were processed

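Bulk RNA-seq libraries of 8 samples were analysed from 1 deposited table of raw counts, with 1 row for each gene symbol, as the authors left them. Per the submitters' processing notes, cutadapt 1.18, Bowtie2 2.2.5 and genome build mm10 were used. The counter, its annotation and its handling of strand and of multiply mapped reads are details not given in the sources used here. Columns were matched to samples by name, and 1 row without a gene name, which held the column totals, was left out. Groups come from the titles. The 40 genes, their roles and all other lists were chosen with earlier results of these data known. Library totals and TMM factors were computed without Rn45s and Rn18s, genes were kept with filterByExpr, and 1 quasi-likelihood fit in edgeR 4.0.16 (R 4.3.3) covered all 8 libraries with 4 group means, 4 residual degrees of freedom and no replicate block. P-values were adjusted over the 13029 genes tested, and standard errors are the log2 fold change divided by the root of F. The fit was tested on simulated data. Replicates differed by more than sampling noise (chi-square per gene 3.1 to 16.1). Genes of the 40 called in a comparison are named with their fold change and adjusted p there, and most also with CPM. The others are named too, some with fold changes only. Of the other pathway genes, the 3 called genes with the smallest adjusted p in each direction are named. Coordinates and promoters are from RefSeq GRCm38.p6 and transcript lengths from GENCODE M21. Alternatives were other scalings, no low-count filter, DESeq2 1.42.0, limma-voom 3.58.1, robust empirical Bayes, only the 4 libraries compared, replicate blocks, each library left out and, chosen after seeing the data, offsets for transcript length in 20 bins (92.1% of tested genes had a length). With 2 libraries a group, exact permutation tests cannot reach 0.05, so only the fit across all genes was tested.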

Additional observations from a re-analysis of the deposited data

How the results depend on the processing

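Of the counts of ribosome biogenesis genes lower in PD1+Tim3+ than in PD1+Tim3- cells, that labelled dKO, 13 as reported, was 5 with library totals only, 5 with DESeq2, 8 with only the 4 libraries compared, 5 with a replicate block and 6 with a replicate block within genotype. It ranged from 0 to 12 with each library left out. That in WT, 17 as reported, was 6 with library totals only and 0 to 17 with each library left out, and 14 and 13 with the replicate blocks. The count of higher genes was 2 to 3 labelled dKO and 2 in WT with each library left out. With library totals only, the median log2 fold change of the 40 genes was -0.251 labelled dKO and -0.0737 in WT, 0.0557 for dKO over WT in PD1+Tim3- and -0.0604 in PD1+Tim3+ cells, and -0.156 for the difference between these genotype effects. With each library left out, these medians ran from -0.352 to -0.312, from -0.379 to -0.271, from -0.0293 to 0.0298, from -0.0442 to 0.0724 and from -0.0467 to 0.121. Without the low-count filter 2 genes (Rn18s and Rn45s) passed downward and 0 upward labelled dKO over WT in PD1+Tim3- cells, beside 195 and 52 of all genes. There were 1 upward in PD1+Tim3+ cells and 3 upward in the difference, beside 335 and 318 of all genes. The first and second of these comparisons had medians of -0.0281 and -0.0109. 1 gene passed upward in PD1+Tim3+ cells with robust empirical Bayes (69 of all genes), and 1 in the difference with DESeq2 (91 of all genes). With each library left out, the count was 0 to 1 upward in PD1+Tim3+ cells, 0 to 3 upward in the difference and 0 in the rest. The offsets for transcript length, chosen after seeing the data, gave a median difference of 0.0434. They left the counts lower at 13 and 16 (584 and 1147 of all genes). The causes were not tested. Genes of the 40 with an edgeR unadjusted p under 0.05 in a comparison kept their sign there under every alternative run. The other named genes were not followed through these runs. Same-numbered replicates did not deviate together (correlations of deviations between groups -0.226 to 0.0365), and nothing states that a number marks a mouse or day.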
